A study of Mus musculus with 18 samples.

Results

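A set of 10 genes around the transcription factor NRF2 was followed through every liver of the series. They were Nfe2l2, which encodes NRF2, Maff, which encodes a small MAF protein, and the antioxidant genes Nqo1, Gstp1, Cbr1, Gclc, Gclm, Txnrd1, Srxn1 and Hmox1. These 10 of the 54532 genes in each table were taken by name, and they were chosen by their FPKM in both comparisons of these same livers. Their levels and diet differences are therefore given as a description and support nothing further. The livers came from male WT C57BL/6J mice placed at 4 wk of age on a control diet (Ctrl) or a vitamin B2-deficient diet (B2D), all fasted overnight before harvest. Ctrl (n = 5) and B2D (n = 5) livers were collected after 1 month of diet. Ctrl+FF (n = 4) and B2D+FF (n = 4) livers were collected after 9 wk of diet, with fenofibrate, an agonist of the nuclear receptor PPARα, given by daily gavage over weeks 7 to 9 and also 2 hr before harvest. Fenofibrate, the longer time on diet and the separate table came together, so the 3 cannot be told apart, and no liver taken at 9 wk without fenofibrate was analysed here. Both diets listed t-butylhydroquinone, an oil preservative known to activate NRF2, in equal amounts, and its part in the levels was not tested.

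NRF2 is held in the cytoplasm by KEAP1, which marks it for degradation. When KEAP1 is modified by electrophiles or oxidants, NRF2 enters the nucleus, pairs with a small MAF protein and binds antioxidant response elements near genes for detoxification, glutathione, thioredoxin and heme breakdown. Small MAF proteins such as MAFF carry no activation domain, so their pairs with one another or with BACH1 repress the same elements. Vitamin B2 is the precursor of FAD, the cofactor of the NRF2 targets NQO1 and thioredoxin reductase (Txnrd1) and of glutathione reductase (Gsr).

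Promoter windows are shown for the 4 genes whose diet difference passed the threshold in one of the experiments (Maff, Gstp1, Nqo1 and Cbr1) and for Srxn1, the window with the most motif matches. Each window holds 250 bases before and 50 bases after a RefSeq transcript start on GRCm38.p6, printed 5′ to 3′ on the gene's strand, with motif matches in capitals. The motifs searched on both strands were TGACNNNGC, the core of the antioxidant response element, and TGANTCA, the AP-1 element, which reads the same on both strands.
Maff, chr15:79346371-79346670, plus strand: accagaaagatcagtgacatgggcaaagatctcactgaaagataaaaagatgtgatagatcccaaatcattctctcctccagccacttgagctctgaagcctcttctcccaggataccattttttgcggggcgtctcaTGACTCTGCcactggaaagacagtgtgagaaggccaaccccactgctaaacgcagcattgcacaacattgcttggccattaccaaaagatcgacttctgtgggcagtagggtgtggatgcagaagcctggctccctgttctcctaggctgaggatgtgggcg
Gstp1, chr19:4037863-4038162, minus strand: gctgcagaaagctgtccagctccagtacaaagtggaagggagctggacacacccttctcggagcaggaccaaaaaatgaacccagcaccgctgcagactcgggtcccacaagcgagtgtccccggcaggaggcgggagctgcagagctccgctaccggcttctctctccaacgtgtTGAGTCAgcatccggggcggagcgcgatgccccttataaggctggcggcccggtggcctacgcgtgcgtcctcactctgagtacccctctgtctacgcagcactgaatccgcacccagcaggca
Nqo1, chr8:107403156-107403455, minus strand: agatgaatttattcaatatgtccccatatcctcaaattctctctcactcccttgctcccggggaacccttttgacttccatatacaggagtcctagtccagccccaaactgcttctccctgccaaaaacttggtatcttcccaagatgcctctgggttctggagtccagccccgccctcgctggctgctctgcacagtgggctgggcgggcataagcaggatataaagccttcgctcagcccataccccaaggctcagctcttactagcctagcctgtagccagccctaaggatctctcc
Cbr1, chr16:93607587-93607886, plus strand: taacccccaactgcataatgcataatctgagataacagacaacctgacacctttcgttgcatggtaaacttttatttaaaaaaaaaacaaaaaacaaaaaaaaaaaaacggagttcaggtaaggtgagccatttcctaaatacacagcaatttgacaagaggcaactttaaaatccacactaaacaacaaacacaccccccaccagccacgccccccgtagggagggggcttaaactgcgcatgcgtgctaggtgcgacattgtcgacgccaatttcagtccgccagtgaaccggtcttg
Srxn1, chr2:152105274-152105573, plus strand: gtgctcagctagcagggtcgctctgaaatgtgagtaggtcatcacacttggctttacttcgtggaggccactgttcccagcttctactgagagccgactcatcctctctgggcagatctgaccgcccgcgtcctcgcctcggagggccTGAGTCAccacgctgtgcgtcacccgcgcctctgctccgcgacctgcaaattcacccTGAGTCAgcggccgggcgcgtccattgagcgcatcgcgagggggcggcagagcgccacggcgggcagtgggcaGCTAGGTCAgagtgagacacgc
No match of one motif overlapped a match of the other. The first Maff window held TGACTCTGC starting 112 bases before the transcript start. The other Maff windows, chr15:79347270-79347569 and chr15:79348152-79348451, are not shown and held neither motif. The Gstp1 window held TGAGTCA starting 74 bases before it. The Srxn1 window held TGAGTCA 102 and 45 bases before the start, and TGACCTAGC on the other strand from base 29 of the transcript. In Gstp1, and at 45 bases before the start in Srxn1, GC followed TGAGTCA, so these runs differ from TGACNNNGC by a G for its C. The Nqo1 and Cbr1 windows held neither motif.

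RefSeq windows were found for 8 of the 10 genes, 12 windows in all, and Gclc and Hmox1 had none. TGACNNNGC was present for 5 of the 8 genes, namely Maff, Srxn1, Nfe2l2 (240 bases before the start), Gclm (134 bases before) and Txnrd1 (92 bases before, in the second of its windows). Over all 32851 windows of the same length, 12.4% held this motif, and 14.0% of 27025 genes had at least 1 such window. TGANTCA was present for 2 of the 8 genes, against 7.81% of all windows and 8.97% of genes. A match is a run of letters in a short window, and no binding was measured in these livers.

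Expression was measured by RNA-seq with 1 library per mouse and is given as FPKM, fragments per kilobase of gene scaled to library size. The libraries held 15320729 to 21898502 reads assigned to genes, and replicate livers of a group correlated at 0.979 to 0.994. Hepatocyte markers summed to at least 30041 FPKM in every liver, against at most 180 FPKM for the Kupffer cell and macrophage markers and at most 1.73 FPKM for the lymphocyte markers. Cholangiocyte markers summed to 4.78 to 38.0, endothelial to 24.9 to 40.1, stellate cell to 20.5 to 57.9 and neutrophil markers to 0.431 to 13.4 FPKM. None of the 10 hepatocyte or 10 macrophage markers was at 0 throughout a group. These are bulk livers, in which fewer cells of a type and less RNA per cell cannot be told apart. Diet differences were fitted with limma on log2(FPKM + 1) in each table alone, over all genes with a mean of at least 0.5 FPKM, and a gene passed the threshold at a Benjamini-Hochberg adjusted p under 0.05. With fenofibrate, 2 of the 10 hepatocyte markers passed as higher in B2D+FF (Tat at 1.35 and Pck1 at 0.84 on the log2 scale) and 0 as lower, with 4 higher and 4 lower at an unadjusted p under 0.05 in limma. Alb, Apoa2 and Ttr differed by -0.35, -0.35 and -0.34 and were lower in every B2D+FF liver, 3 of the 10. Tat, Pck1 and Hnf4a (0.35) were higher in every B2D+FF liver, also 3 of the 10. Of all genes tested, 2.24% passed as higher, and 7.82% were higher and 6.44% lower in every liver. No share of all genes was computed for the unadjusted counts. Of the 6 endothelial markers, Lyve1 passed as higher (0.77) and was the 1 above 0, with a median of -0.10. Of the 3 neutrophil markers tested, Retnlg passed as higher (0.97) and all 3 were above 0. These markers were named after their values were seen.

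In B2D against Ctrl, 1 of the 10 genes passed the threshold, Gstp1, which was lower in B2D. Of all 11574 genes tested in this comparison, 0.769% passed as higher and 1.94% as lower. In B2D+FF against Ctrl+FF, 3 of the 10 passed, Maff, Nqo1 and Cbr1, all higher in B2D+FF. Of all 11878 genes tested there, 2.24% passed as higher and 2.21% as lower, so 50.3% of the genes called were higher, against 37.9% after upper-quartile scaling. The 10 genes had a median log2 fold change of -0.01 in the first comparison, with 5 of 10 above 0, and of 0.36 in the second, with 8 of 10 above 0. Over all genes tested the medians were -0.00 and 0.01. The groups did not overlap for the same genes: Gstp1 was lower in every B2D liver than in every Ctrl liver, where 2.89% of all genes were lower and 2.08% higher in this way. Maff, Nqo1 and Cbr1 were higher in every B2D+FF liver than in every Ctrl+FF liver, where 7.82% of all genes were higher and 6.44% lower in this way.

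**Figure D1:**
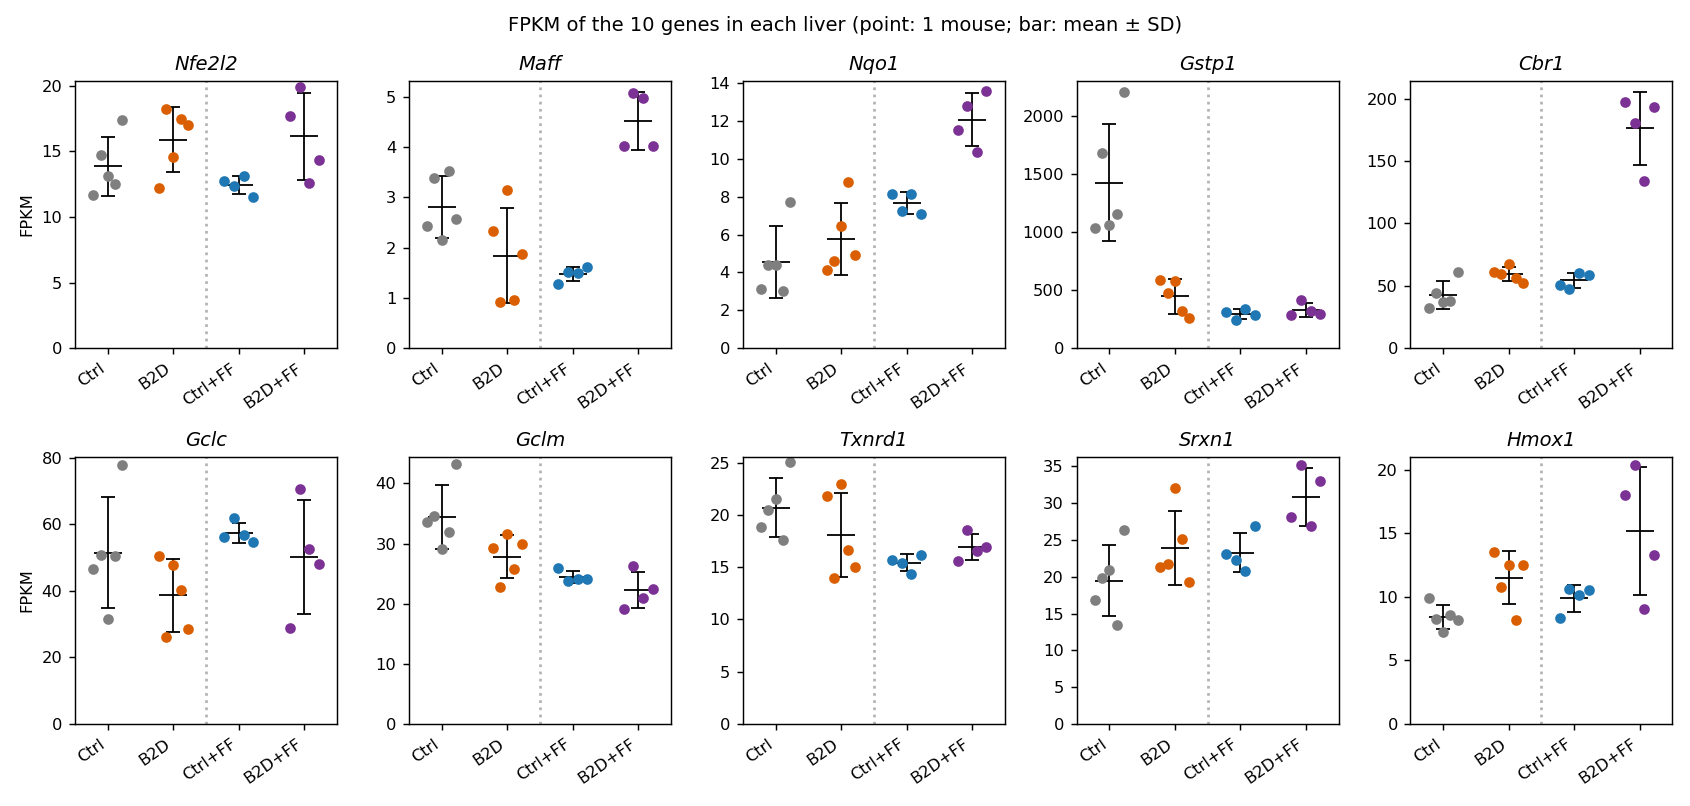
FPKM of each of the 10 genes (y axis, linear from 0) in the 4 groups (x axis), with 1 point per mouse and a bar for the mean and SD; a dotted line parts the separately normalised tables. Gstp1 stands at 1038 FPKM or above in the Ctrl livers and at 587 or below in the B2D livers, and Cbr1 at 134 or above in the B2D+FF livers.

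Nfe2l2 (chr2:75675513-75704641, minus strand, GRCm38) stood at 11.5 to 19.9 FPKM throughout. Ctrl livers held 11.7, 14.7, 13.1, 12.5 and 17.4 FPKM and B2D livers 12.2, 18.2, 14.5, 17.4 and 17.0 FPKM. Ctrl+FF livers held 12.7, 12.4, 13.1 and 11.5 FPKM and B2D+FF livers 17.7, 19.9, 12.6 and 14.4 FPKM. The groups overlapped in both experiments, although B2D+FF mice 1 and 2 stood above every Ctrl+FF mouse by more than that group's whole range. The log2 fold change was 0.18 ± 0.133 (SE) without fenofibrate and 0.33 ± 0.133 (SE) with it, and neither passed the threshold.

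Maff (chr15:79346621-79359076, plus strand), the small MAF partner, had a lower mean in B2D than in Ctrl, short of the threshold, and a higher mean in B2D+FF than in Ctrl+FF, past it. Ctrl livers held 2.43, 3.39, 2.15, 3.54 and 2.56 FPKM, a mean of 2.81 ± 0.614 (SD, n = 5), and B2D livers 2.32, 0.926, 3.14, 0.953 and 1.87 FPKM, a mean of 1.84 ± 0.942 (SD, n = 5). B2D mice 2 and 4 were the lowest livers of the whole series for this gene, and B2D mouse 3 lay within the Ctrl range. Its log2 fold change of -0.47 ± 0.207 (SE) did not pass the threshold. With fenofibrate, Ctrl+FF livers held 1.27, 1.52, 1.49 and 1.62 FPKM, a mean of 1.47 ± 0.147 (SD, n = 4), and B2D+FF livers 4.03, 5.08, 4.97 and 4.03 FPKM, a mean of 4.53 ± 0.579 (SD, n = 4). The lowest B2D+FF liver stood above every other liver of the series. This was a 3.07-fold higher mean and a log2 fold change of 1.16 ± 0.0923 (SE), past the threshold in every alternative fit. Maff was a low gene with 41 to 268 reads per library, and the added 1 FPKM compresses its difference: on reads, with limma voom, the log2 fold change was 1.61.

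In the order of group means, Ctrl+FF came lowest for Maff, then B2D, Ctrl and B2D+FF. The Ctrl+FF range lay inside the B2D range and B2D overlapped Ctrl, so among these neighbours only the step from Ctrl to B2D+FF separated all livers, and it runs across separately normalised tables and was not tested. None of the other regulators moved past the threshold. Of the 11 regulators and partners listed besides these genes, 8 were tested without fenofibrate and 9 with it, and 0 passed in either (limma; 1 lower and 1 higher at an unadjusted p under 0.05). Keap1 differed by -0.09 ± 0.13 (SE) and -0.13 ± 0.0872 (SE) on the log2 scale, and Bach1, the repressor that shares the small MAF partners, by -0.22 ± 0.198 (SE) and -0.05 ± 0.115 (SE), without and with fenofibrate. The sister small MAF genes Mafg and Mafk differed by -0.25 and -0.22 without fenofibrate and by -0.07 and 0.01 with it.

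Nqo1 (chr8:107388225-107403206, minus strand) encodes an FAD-dependent quinone reductase and is a widely used readout of NRF2. Ctrl livers held 3.15, 4.41, 4.37, 3.02 and 7.73 FPKM and B2D livers 4.13, 4.60, 6.46, 8.76 and 4.91 FPKM. A single liver in each group, Ctrl mouse 5 and B2D mouse 4, stood above the rest, and the groups overlapped. The means were 4.54 ± 1.90 and 5.77 ± 1.88 FPKM (SD, n = 5 each), and the log2 fold change of 0.31 ± 0.224 (SE) did not pass. With fenofibrate, Ctrl+FF livers held 8.16, 7.24, 8.15 and 7.07 FPKM and B2D+FF livers 11.5, 12.8, 10.4 and 13.6 FPKM. Every B2D+FF liver was higher, with means of 7.65 ± 0.584 and 12.1 ± 1.40 FPKM (SD, n = 4 each), a 1.58-fold difference and a log2 fold change of 0.59 ± 0.0969 (SE), past the threshold. Nqo1 no longer passed when Ctrl+FF mouse 2 was left out (log2 fold change 0.57) or when all 4 groups were fitted together (0.59). The order of means was Ctrl, B2D, Ctrl+FF and B2D+FF, in which the first 3 overlapped their neighbours and B2D+FF did not.

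Cbr1 (chr16:93605853-93610505, plus strand) encodes carbonyl reductase 1, an NADPH-dependent enzyme for quinones and other carbonyls, and showed the largest difference with fenofibrate among the 10 genes. Ctrl livers held 32.3, 44.4, 37.0, 37.6 and 60.8 FPKM and B2D livers 61.4, 59.2, 67.1, 56.0 and 52.3 FPKM. Only Ctrl mouse 5 reached the B2D range, and the log2 fold change of 0.50 ± 0.155 (SE) did not pass. It passed when Ctrl mouse 5 was left out, at 0.64. With fenofibrate, Ctrl+FF livers held 50.8, 47.5, 60.0 and 58.9 FPKM and B2D+FF livers 197, 180, 134 and 193 FPKM. The lowest B2D+FF liver was above every other liver of the series. The means of 54.3 ± 6.14 and 176 ± 29.3 FPKM (SD, n = 4 each) differed 3.24-fold, with a log2 fold change of 1.67 ± 0.143 (SE), past the threshold in every alternative fit.

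Gstp1 (chr19:4035407-4037921, minus strand) encodes glutathione S-transferase P, which joins glutathione to electrophiles, and was the highest of the 10 genes per length. Ctrl livers held 1038, 1685, 1060, 1157 and 2207 FPKM and B2D livers 587, 479, 579, 322 and 263 FPKM. Every B2D liver was below every Ctrl liver. The mean fell from 1429 ± 508 to 446 ± 148 FPKM (SD, n = 5 each), to 0.312 times the Ctrl mean, with a log2 fold change of -1.68 ± 0.272 (SE). It stayed past the threshold with any 1 of the 10 livers left out and was lost when no filter on low genes was used. With fenofibrate, Ctrl+FF livers held 309, 242, 341 and 285 FPKM and B2D+FF livers 289, 420, 317 and 294 FPKM. These groups overlapped, with a log2 fold change of 0.16 ± 0.152 (SE), and both sat near the lower B2D livers rather than the Ctrl livers, across separately normalised tables. Of its 100-base transcript windows in GENCODE M21, 25.1% also occur in Gstp2 or Gstp-ps, so part of its reads could be split among copies. These 1937 windows pool every transcript of the gene, whereas the gene length behind its FPKM is 757 bases. The shared part of that length was not computed and could be larger. Gstp2 itself was listed at 2.79 ± 2.18 FPKM in Ctrl and 1.52 ± 0.795 FPKM in B2D (SD, n = 5 each), and at 3.09 ± 3.77 FPKM in Ctrl+FF and 4.94 ± 4.61 FPKM in B2D+FF (SD, n = 4 each).

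The ratio of Gstp1 to Cbr1, of the same detoxification arm, set the 4 groups side by side. It ran from 28.6 to 38.0 in Ctrl livers, 5.03 to 9.56 in B2D, 4.83 to 6.10 in Ctrl+FF and 1.47 to 2.37 in B2D+FF. The diet groups did not overlap in either experiment. In the first, Gstp1 alone already separated them, and Cbr1 differed the other way by 0.50 on the log2 scale. In the second, Cbr1 alone already separated them. Both genes were picked with these values known, so the ratio restates their levels and adds no support.

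**Figure D2:**
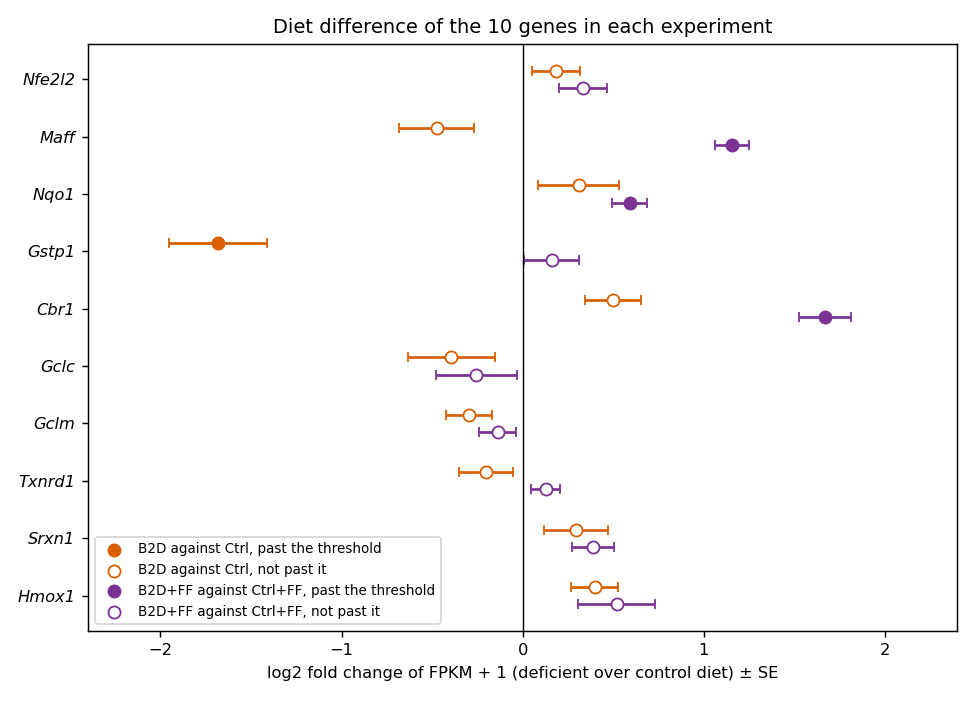
Log2 fold change of FPKM + 1 of each of the 10 genes (x axis, B2D over control diet, bars ± SE) without fenofibrate (orange) and with it (purple), filled where the threshold was passed. Maff and Txnrd1 lie below 0 without fenofibrate and above 0 with it, and Gstp1 is at -1.68 and 0.16.

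Gclc and Gclm encode the catalytic and modifier subunits of glutamate-cysteine ligase, the rate-limiting enzyme of glutathione synthesis, and neither passed in any comparison. Gclc (chr9:77754535-77794485, plus strand) held 46.7, 50.7, 31.5, 50.5 and 77.8 FPKM in Ctrl livers and 50.4, 26.0, 47.9, 40.3 and 28.6 FPKM in B2D livers. It held 56.3, 61.9, 56.7 and 54.7 FPKM in Ctrl+FF livers and 28.9, 70.7, 52.7 and 48.2 FPKM in B2D+FF livers. B2D+FF mice 1 and 2 stood at opposite ends of that group, while Ctrl+FF livers lay close together. The log2 fold changes were -0.39 ± 0.239 (SE) and -0.26 ± 0.224 (SE). Gclm (chr3:122245557-122270732, plus strand) ranged from 29.0 to 43.2 FPKM in Ctrl, 22.8 to 31.6 in B2D, 23.8 to 25.9 in Ctrl+FF and 19.2 to 26.3 in B2D+FF. Its log2 fold changes were -0.29 ± 0.126 (SE) and -0.14 ± 0.102 (SE), with overlapping groups. The ratio of the 2 subunits, Gclc to Gclm, had medians of 1.47 in Ctrl and 1.52 in B2D, and of 2.32 in both Ctrl+FF and B2D+FF. It ranged from 1.08 to 1.80, 0.955 to 1.73, 2.17 to 2.60 and 1.51 to 2.69 in the same order, so the diet groups overlapped in each experiment and B2D+FF also overlapped both groups without fenofibrate. Of the transcript windows of Gclm, 2.44% also occur in Ppia or its pseudogenes.

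Txnrd1 (chr10:82833951-82897712, plus strand), the cytosolic thioredoxin reductase and an FAD enzyme, ranged from 17.6 to 25.0 FPKM in Ctrl, 14.0 to 22.9 in B2D, 14.3 to 16.2 in Ctrl+FF and 15.6 to 18.5 in B2D+FF. Its log2 fold changes were -0.20 ± 0.149 (SE) and 0.13 ± 0.0808 (SE), and the groups overlapped in both. Srxn1 (chr2:152105516-152111376, plus strand), sulfiredoxin, which repairs over-oxidised peroxiredoxins, held 16.8, 19.8, 20.9, 13.5 and 26.3 FPKM in Ctrl livers and 21.3, 21.8, 32.1, 25.1 and 19.2 FPKM in B2D livers. With fenofibrate it held 23.1, 22.3, 20.7 and 26.9 FPKM in Ctrl+FF livers and 28.1, 35.2, 26.9 and 33.0 FPKM in B2D+FF livers. The highest Ctrl+FF liver only just reached the lowest B2D+FF liver. The log2 fold changes of Srxn1 were 0.29 ± 0.176 (SE) and 0.39 ± 0.116 (SE), and neither passed.

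Hmox1 (chr8:75093621-75100589, plus strand), heme oxygenase 1, degrades heme and is also strongly expressed in macrophages that take up red cells. Ctrl livers held 9.89, 8.25, 7.21, 8.60 and 8.17 FPKM and B2D livers 13.6, 10.8, 12.5, 8.21 and 12.5 FPKM. Ctrl+FF livers held 8.32, 10.6, 10.2 and 10.5 FPKM and B2D+FF livers 18.04, 20.4, 9.08 and 13.3 FPKM. B2D mouse 4 and B2D+FF mouse 3 lay within the control range and the other deficient livers above it. The log2 fold changes were 0.40 ± 0.131 (SE) and 0.52 ± 0.213 (SE), and neither passed, although with B2D+FF mouse 3 left out the second was 0.73 and passed. The summed FPKM of the 10 macrophage markers was 130 to 160 in Ctrl, 103 to 139 in B2D, 105 to 176 in Ctrl+FF and 71.3 to 180 in B2D+FF. Of these 10 markers, 2 passed as lower in B2D, Clec4f at -0.47 and C1qa at -0.50 on the log2 scale, where 1.94% of all genes did. Marco was the 1 above 0, at 0.95, and did not pass. At an unadjusted p under 0.05 in limma, 1 was higher and 3 lower in B2D. With fenofibrate 0 passed, and 2 were lower at that unadjusted level. The red blood cell markers summed to 184 to 250, 91.3 to 392, 437 to 630 and 284 to 690 FPKM in the same order of groups, and Alas2, the first enzyme of heme synthesis in red cell precursors, was lower at -1.36 and -1.37. Clec4f, C1qa, Marco and Alas2 were named after their values were seen, and their part in the Hmox1 levels was not tested.

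The order of means was Ctrl, Ctrl+FF, B2D and B2D+FF for both Hmox1 and Cbr1, with overlap between all neighbours for Hmox1. For Srxn1 the order was Ctrl, Ctrl+FF, B2D and B2D+FF as well, again with overlap. For Gclm the order from the highest was Ctrl, B2D, Ctrl+FF and B2D+FF, with overlap between neighbours.

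**Figure D3:**
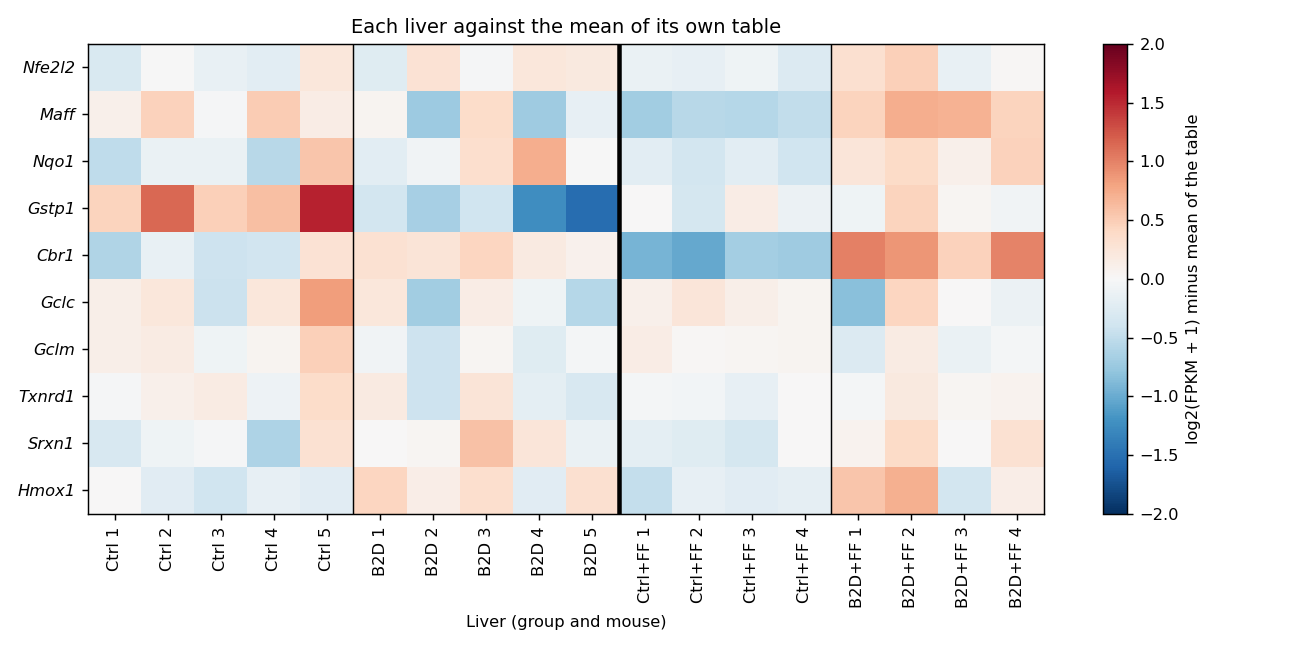
Log2(FPKM + 1) of each of the 10 genes (y axis) in each of the 18 livers (x axis, group and mouse) minus the mean of its own table, red above and blue below, with a thick line between tables. Ctrl mouse 5 and B2D+FF mouse 2 are each the highest of their group for 8 of the 10 genes.

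Some livers were high or low over many of the genes at once. Ctrl mouse 5 was the highest Ctrl liver for 8 of the 10 genes, all but Maff and Hmox1. B2D+FF mouse 2 was the highest B2D+FF liver for 8 of the 10, all but Nqo1 and Cbr1, and B2D+FF mouse 3 was the lowest for 5, among them Nfe2l2, Nqo1 and Hmox1. B2D mouse 2 was the lowest B2D liver for 4, including Maff and both glutamate-cysteine ligase subunits. These are ranks within 4 or 5 livers.

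The difference of the diet differences, B2D+FF over Ctrl+FF minus B2D over Ctrl, was fitted over all 18 livers. It was above 0 for all 10 genes, with a median of 0.22 against 0.01 for the 11862 genes tested. Of those 11862 genes, 6213 were above 0. The 64 further pathway genes tested, described below, had a median of 0.21, with 52 above 0. Over genes with a mean of at least 5 FPKM the median of all genes was 0.09. The shift was therefore not particular to the 10 genes. The difference was 1.63 ± 0.261 (SE) for Maff, 1.84 ± 0.354 (SE) for Gstp1 and 1.17 ± 0.221 (SE) for Cbr1 on the log2 scale, and these 3 of the 10 passed the threshold. Of all genes tested, 0.126% passed as higher and 0.101% as lower in this contrast. Maff passed in every alternative fit, while Gstp1 was lost in 11 and Cbr1 in 8 of 25 fits, most of them leaving out 1 liver, with values of 1.65 to 1.91 and 1.06 to 1.17. The remaining 7 genes differed by 0.10 to 0.33.

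The wider pathway was read from 73 further genes in 7 lists. In B2D against Ctrl, 0 of the 61 tested passed as higher and 2 as lower in limma, against 0.769% and 1.94% of all genes. At an unadjusted p under 0.05, 2 were higher and 9 lower, and 0 passed as higher with voom. The median log2 fold change was -0.08, with 25 above 0. Prdx6, a peroxiredoxin that reduces phospholipid hydroperoxides, fell from 119.6 ± 12.7 to 84.2 ± 6.80 FPKM (SD, n = 5 each), and the log2 fold change was -0.50 ± 0.107 (SE; limma adjusted p = 0.0340). Gsta3, a class alpha glutathione transferase, fell from 189.9 ± 41.2 to 110.0 ± 17.4 FPKM (SD, n = 5 each), and the log2 fold change was -0.77 ± 0.168 (SE; limma adjusted p = 0.0364). Both were lower in every B2D liver, and each kept the threshold in 3 of 10 fits with 1 liver left out. The thioredoxin and peroxiredoxin list had 4 of 10 genes above 0 and the superoxide and peroxide list 1 of 7.

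In B2D+FF against Ctrl+FF, 5 of the 65 tested passed as higher and 0 as lower in limma, against 2.24% and 2.21% of all genes, with a median of 0.09 and 42 above 0. At an unadjusted p under 0.05, 16 were higher and 2 lower. The share of all genes at that level was not computed, so these counts stand without a background. The count passing as higher was 10 with voom, 9 with array weights, 2 with no filter, 1 without Ctrl+FF mouse 1, 2 or 3, 2 without B2D+FF mouse 4, and 4 to 7 without each of the others, and 0 were lower with voom. Of the glutathione supply list, 2 of 5 passed as higher, where 2.24% of all genes did. Gss, glutathione synthetase, which adds glycine in the last step of glutathione synthesis, rose from 8.28 ± 0.730 to 12.2 ± 1.16 FPKM (SD, n = 4 each), and the log2 fold change was 0.51 ± 0.0924 (SE; limma adjusted p = 0.0182). Slc3a2, the heavy chain of cystine and amino acid exchangers, rose from 8.36 ± 0.620 to 14.6 ± 3.18 FPKM (SD, n = 4 each; limma adjusted p = 0.0239). Slc7a11, on the same list, was too low to be tested, with at most 2 reads in any liver and 0 in every B2D+FF liver.

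Of the 23 genes tested for conjugation, reduction and export, 3 passed as higher with fenofibrate, against the same 2.24% of all genes. Mgst3, a microsomal glutathione transferase, rose from 30.8 ± 2.30 to 80.5 ± 17.97 FPKM (SD, n = 4 each), and the log2 fold change was 1.33 ± 0.163 (SE; limma adjusted p = 0.00391), and it passed with any of the 8 livers left out. Ugdh, which makes the UDP-glucuronate used in conjugation, rose 1.52-fold (limma adjusted p = 0.0448) and passed in 1 of those 8 fits. Cbr3, the neighbour and relative of Cbr1, rose from 0.343 ± 0.0760 to 3.30 ± 2.36 FPKM (SD, n = 4 each; limma adjusted p = 0.0374), with 5 to 9 reads in Ctrl+FF libraries and 31 to 160 in B2D+FF libraries. It passed in 3 of 8 fits with a liver left out, Gss in 5 and Slc3a2 in 4. The NADPH, heme and iron, thioredoxin and superoxide lists had 0 genes past the threshold, with 4 higher and 2 lower at an unadjusted p under 0.05. For the difference between the experiments, 0 of the 64 genes tested passed (limma; 12 higher and 1 lower at an unadjusted p under 0.05, and 0 with voom). No share of all genes was computed for these unadjusted counts.

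**Figure D4:**
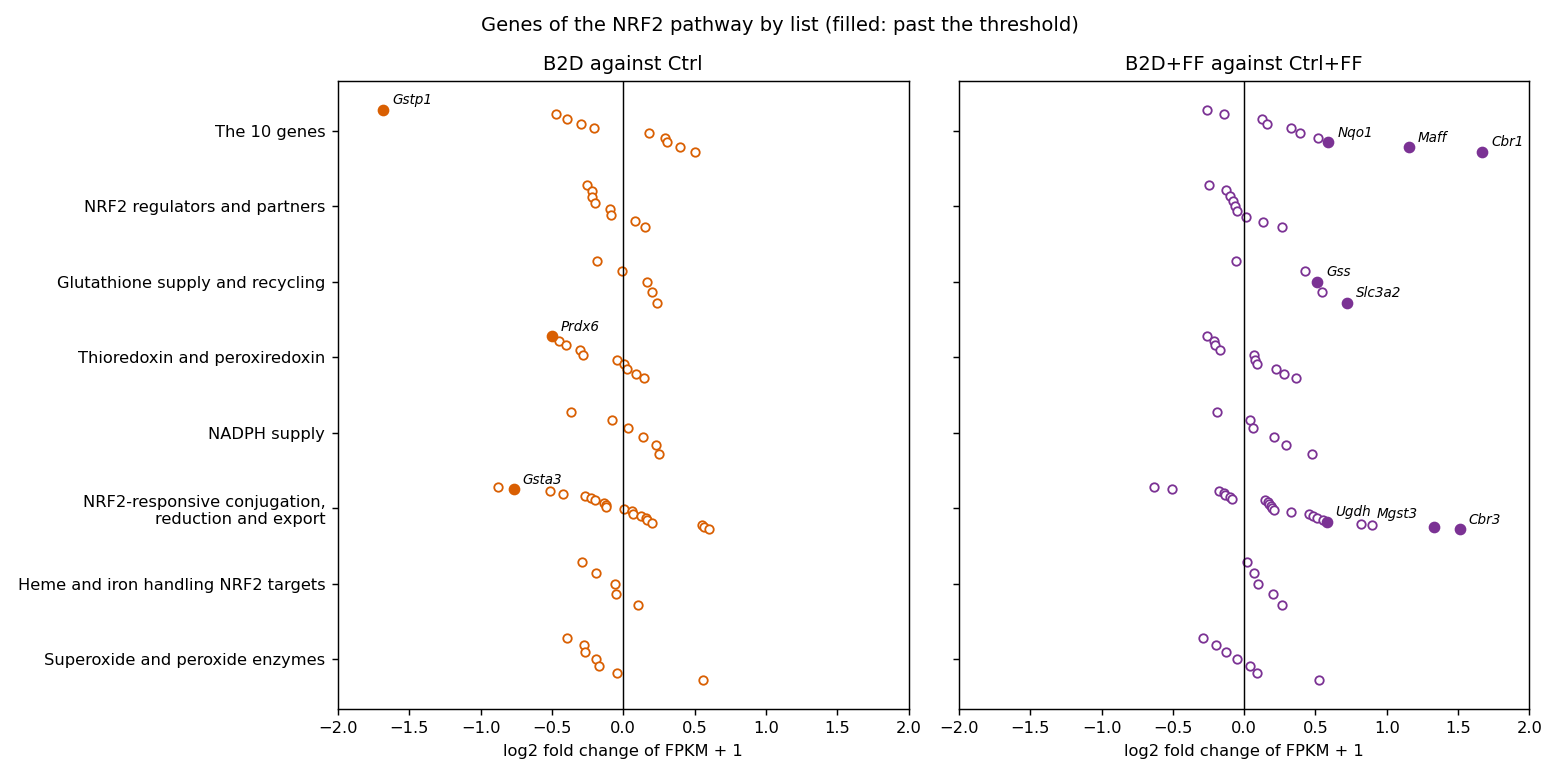
Log2 fold change of FPKM + 1 (x axis) of each tested gene of the NRF2 pathway, 1 circle per gene, by list (y axis) without fenofibrate (left) and with it (right), filled and named where the threshold was passed. Named genes lie below 0 on the left, where they are Gstp1, Prdx6 and Gsta3, and above 0 on the right.

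The genes nearest to Nqo1 and Maff across all 18 livers were found by the root mean square difference in log2(FPKM + 1), each gene centred on its mean in each table, over 9927 protein-coding genes. Nearest to Nqo1 were Htatip2 (0.198), Pik3c2a (0.216), Chmp2b (0.221), Cast (0.222) and Tceal8 (0.222), against a root mean square of 0.366 for Nqo1's own profile. The order of group means was that of Nqo1 for Htatip2 and Tceal8 and another for Pik3c2a, Chmp2b and Cast. Htatip2 averaged 14.3 ± 4.88, 17.2 ± 3.56, 27.8 ± 1.06 and 43.7 ± 9.73 FPKM in Ctrl, B2D, Ctrl+FF and B2D+FF (SD), and Pik3c2a 5.41 ± 0.833, 6.68 ± 1.93, 2.90 ± 0.0987 and 4.32 ± 0.919 FPKM. Centring took out the level between tables beforehand, so the likeness could only lie in the deviations within each table. Nearest to Maff were Pck1 (0.327), Stbd1 (0.328), Ndel1 (0.338), Ubac1 (0.342) and Cyp2c29 (0.344), against 0.498 for Maff itself. Pck1, the gluconeogenic enzyme phosphoenolpyruvate carboxykinase, averaged 1261 ± 222 FPKM in Ctrl and 1261 ± 255 FPKM in B2D (SD, n = 5 each), and 542 ± 104 FPKM in Ctrl+FF and 975 ± 220 FPKM in B2D+FF (SD, n = 4 each). The shared libraries and normalisation enter every such likeness.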

How the data were processed

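Liver RNA-seq of 18 mice was used, 1 library per mouse. The authors made mRNA libraries, aligned reads to mm10 with STAR, counted them with featureCounts and tested genes with DESeq2, versions not given in the sources used here. They deposited 1 table of FPKM values per experiment, which the methods call RPKM. FPKM times gene length gave whole reads for 100% of the values checked (tolerance 0.05 read plus an allowance for rounding). Checked were the values above 0 outside the most abundant genes, 14661 to 18473 per library. The library sizes behind the FPKM values equalled median-of-ratios sizes (ratio 1), so each table was normalised alone. Mice were grouped by the labels and numbered within groups in the order of their mouse numbers. Nothing in the labels says whether mice shared litters or cages.

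The test was limma (version 3.58.1, R 4.3.3) with a trend, on log2(FPKM + 1) of genes with a mean of at least 0.5 FPKM, for each table alone, and the difference of the diet differences as a contrast over 18 libraries. Folds on this scale understate the change of low genes. P-values were adjusted by Benjamini-Hochberg at 0.05. Counts at an unadjusted p under 0.05 stand without the share of all genes at that level, which was not computed. The fit was tested on simulated data, where it recovered 78% (11565 genes, B2D against Ctrl) and 82% (11886 genes, B2D+FF against Ctrl+FF) of 200 genes changed by 1 on the log2 scale.

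The 10 genes and all lists were chosen with earlier results of these data known. Lists were NRF2 regulators and partners, glutathione supply and recycling, thioredoxin and peroxiredoxin, NADPH supply, conjugation, reduction and export, heme and iron handling, superoxide and peroxide enzymes, and markers of hepatocytes, macrophages, cholangiocytes, endothelial cells, stellate cells, red blood cells, neutrophils and lymphocytes. Besides the 10 genes, the text names up to 4 genes past the threshold per pathway list by smallest adjusted p, Keap1, Bach1, Mafg and Mafk, and the 5 nearest to Nqo1 and to Maff. Outside this rule, Gsr was named as background with no values given, Slc7a11 for its low reads, and Gstp2, Gstp-ps and Ppia for sequence shared with the 10 genes. The markers Tat, Hnf4a, Alb, Apoa2, Ttr, Lyve1, Retnlg, Clec4f, C1qa, Marco and Alas2 were named after their values were seen. Alternatives were a pseudocount of 0.1, no filter, a mean of at least 5 FPKM, upper-quartile and quantile scaling, array weights, voom on recovered reads, all 4 groups in one fit, and each library left out. Promoter windows are RefSeq sequences of GRCm38.p6.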

Additional observations from a re-analysis of the deposited data

Results flagged for a closer look

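The diet difference differed between the experiments for 3 of the 10 genes by the contrast over all 18 livers, by 1.63 for Maff, 1.84 for Gstp1 and 1.17 for Cbr1 on the log2 scale. Without and with fenofibrate the log2 fold changes were -0.47 and 1.16 for Maff, -1.68 and 0.16 for Gstp1, and 0.50 and 1.67 for Cbr1. Across 25 alternatives, Gstp1 did not pass in 11 and Cbr1 in 8. The genes were chosen with these values known, and fenofibrate and time on diet cannot be told apart here.

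Of 40 sets of livers examined, 10 genes in 4 groups, 1 held a liver far from the rest of its group: Gclm in Ctrl+FF mouse 1, at 25.9 FPKM against 23.8 to 24.1 FPKM in the other 3. Chance gives about 1 such set in 20.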

How the results depend on the processing

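Among the 587 values of the 10 genes' log2 differences under the alternatives, 576 moved by less than 1 SD between livers, 11 moved further and 0 changed sign after a call. Without a filter on low values, more genes are tested and calls fell: in B2D against Ctrl to 18 higher and 49 lower (67 in all), 0 of the 10 genes and 0 other pathway genes lower; in B2D+FF against Ctrl+FF to 137 higher and 135 lower (272 in all) and 2 other pathway genes higher; in the difference between experiments to 1 of the 10 genes. Array weights gave 151 genes higher and 1 other pathway gene higher without fenofibrate, 480 higher and 405 lower (885 in all) with 9 other pathway genes higher with it, and 90 higher and 46 lower (136 in all) with 1 other pathway gene for the difference. Voom on the recovered reads gave 139 genes higher without fenofibrate, 10 other pathway genes higher with it, and 7 higher and 6 lower (13 in all) for the difference. All 4 groups in one fit gave 287 genes higher, 444 lower (731 in all) and 1 other pathway gene higher for B2D against Ctrl. Quantile scaling left 0 other pathway genes lower in B2D and 1 of the 10 genes for the difference. For the difference, a pseudocount of 0.1 gave 8 genes higher (16 in all), and a mean of at least 5 FPKM gave 6 lower. Upper-quartile scaling moved the share higher among genes called with fenofibrate from 50.3% of 529 to 37.9% of 589. The causes were not tested beyond the number of genes tested or livers fitted. With each library left out, B2D against Ctrl gave 26 to 97 genes higher, 72 to 235 lower and 98 (without Ctrl mouse 4) to 332 in all, 0 to 1 of the 10 genes higher and 1 lower throughout, and 0 higher and 0 to 2 lower of the other pathway genes. B2D+FF against Ctrl+FF gave 76 to 299 higher, 93 to 297 lower and 175 (without Ctrl+FF mouse 1) to 596 in all, 2 to 4 of the 10 genes higher and 1 (without Ctrl+FF mouse 1, 2 or 3) to 7 (without B2D+FF mouse 3) other pathway genes higher. The difference gave 10 to 38 higher, 7 to 28 lower and 17 to 66 in all, 1 to 3 of the 10 genes and 0 to 1 other pathway genes higher. No paired analysis was possible because the labels give each mouse its own number and the groups share none. Depth limits low genes such as Maff and Cbr3, with 5 to 268 reads in the fenofibrate libraries.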
